A study of Mus musculus with 12 samples.

Results

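Lox, Loxl1, Loxl2, Loxl3 and Loxl4 are the lysyl oxidase genes of the mouse. They were measured in the aorta of separate untreated mice, mice on minoxidil and mice withdrawn from it. The genes were taken by gene symbol, 1 row per gene identifier, which gave 5 genes among the 50600 counted. All 5 passed the filter on low counts, as did 24660 genes in all. RNA sequencing had been done on the thoracic aorta below the left subclavian artery of C57BL/6J mice, every one of which, controls included, carried a single working copy of the elastin gene (Eln+/-). There were 4 mice in each of 3 groups. The control group had plain water to drink. Mice of the on-drug group had minoxidil, a blood pressure drug that relaxes vessels through ATP-sensitive potassium channels, in their water for 2 weeks from 2.5 months of age. Off-drug mice had the same 2 weeks of minoxidil and then 1 week of plain water. All samples were labelled 3 months old, although the schedule makes the off-drug mice 1 week older, so the extra week of age and the withdrawal cannot be told apart. No Eln+/+ mice and no untreated mice of the off-drug age were analysed here.

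Lysyl oxidases are secreted copper enzymes. They oxidise the side chain of lysine residues in elastin and collagen to an aldehyde, and these aldehydes then condense into the covalent cross-links that give elastic lamellae and collagen fibres their strength. Lox and Loxl1 are made as proenzymes whose propeptide is cut off outside the cell by Bmp1 and its relatives, whereas Loxl2, Loxl3 and Loxl4 carry scavenger receptor cysteine-rich domains in front of the catalytic domain. In the aorta, loss of Lox is known for aneurysm and rupture, and loss of Loxl1 for defective renewal of elastic fibres.

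The catalytic domain is what the members share, and its copper-binding stretch is printed here. The stretch was found by searching each protein for a set pattern of 11 residues that includes the 4 histidines. The shared histidines and part of the matching bases therefore follow from the search. Each line gives 33 bases of coding sequence, 5′ to 3′, from the GENCODE M21 transcripts (GRCm38), with the 4 histidine codons in capitals.
Loxl1: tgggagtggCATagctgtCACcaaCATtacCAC
Loxl2: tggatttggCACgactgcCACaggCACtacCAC
Loxl3: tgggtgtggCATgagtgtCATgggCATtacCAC
Loxl4: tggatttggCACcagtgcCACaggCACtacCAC
In every member the stretch is split by an intron. The Loxl1 stretch lies in exons 3 and 4 (chr9:58293720-58294381, minus strand, intron included) and that of Loxl2 in exons 10 and 11 (chr14:69682316-69689037, plus strand). For Loxl3 it lies in exons 10 and 11 (chr6:83049995-83050125, plus strand), and for Loxl4 in exons 11 and 12 (chr19:42598807-42599899, minus strand). Loxl2 and Loxl4 matched at 31 of the 33 bases, whereas Loxl1 matched Loxl2 at 22 and Loxl4 at 21. Loxl3 matched Loxl1, Loxl2 and Loxl4 at 25 bases each, so these 33 bases place it nearer to none of them. Lox and Loxl1 had the same 11 residues here and differed at 1 base. Over the residues that could be aligned among the last 200 of the translated proteins, Lox and Loxl1 were 75% identical and the other 3 members were 66.5% to 70.2% identical among themselves. Identity between the Lox and Loxl1 pair and the other 3 members was lower, from 50.6% to 57.3%.

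The libraries held 41524501 to 109423243 counts, of which the 5 genes together took 0.0531% to 0.0986%. Each member was measured with at least 469 reads in every library, the fewest being those of Loxl4. No library was a copy of another in its group. With TMM factors, which correct for library composition, 58.4% of the genes called between on-drug and control aorta were higher on drug, and 52.1% of those called between off-drug and control aorta were higher off drug. With library size alone those shares were 72.8% and 68.9%, while the median log2 fold change of all genes moved by less than 0.1.

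Levels between genes were compared per length, as RPKM (reads per kilobase of counted exon and scaled library size). In control aorta Loxl1 was the most abundant member at 84.4 ± 8.82 RPKM (SD, n = 4). Lox followed at 56.4 ± 2.25, Loxl3 at 27.0 ± 1.36, Loxl2 at 13.5 ± 0.924 and Loxl4 at 1.98 ± 0.140 RPKM. The ranges of neighbours in this order did not overlap in control or on-drug aorta. Off drug the order was Loxl1 at 82.8 ± 4.73, Loxl3 at 22.4 ± 0.810, Lox at 21.2 ± 2.11, Loxl2 at 10.1 ± 1.76 and Loxl4 at 1.79 ± 0.270 RPKM, with Loxl3 and Lox overlapping. In control aorta Loxl1 ranked 665 and Lox 982 of the 24660 tested genes by RPKM, and Loxl4 ranked 12687. After withdrawal Lox ranked 2394 and Loxl1 639.

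**Figure D1:**
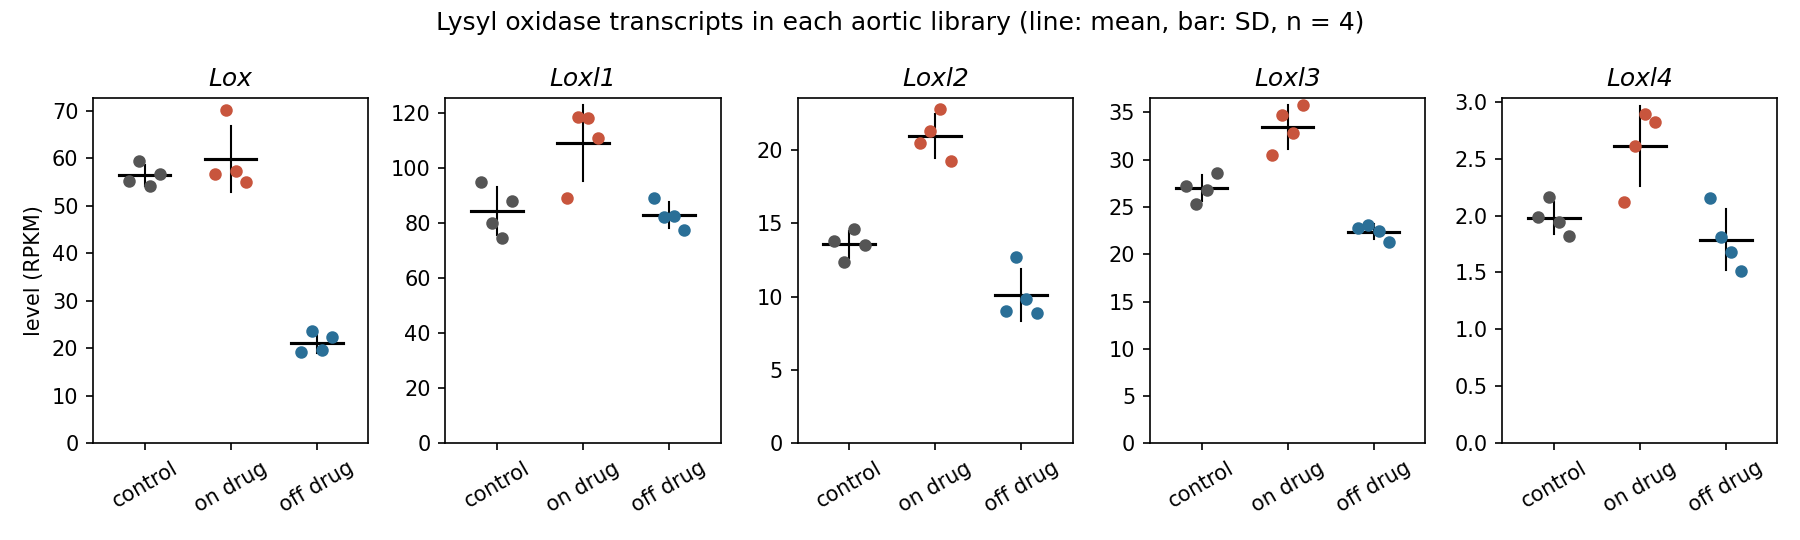
Level of each lysyl oxidase gene in RPKM (y axis from 0, separate scale per panel) in control, on-drug and off-drug libraries; points are libraries, lines the mean and bars the SD of 4. The off-drug points for Lox, at 19.2 to 23.6 RPKM, lie below all other Lox points, whereas the off-drug points for Loxl1 lie among the controls.

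Lox, the founding member, did not pass the test on drug and fell to well under its control level after withdrawal. The gene (ENSMUSG00000024529.13) lies on the minus strand of chromosome 18 from 52516069 to 52529867 (GRCm38). In control libraries it stood at 55.3, 59.4, 54.2 and 56.7 RPKM. The on-drug libraries gave 56.6, 70.2, 57.2 and 55.1 RPKM, so that 3 of them lay within the control range and replicate 2 lay above it. Off drug the values were 19.2, 23.6, 19.7 and 22.4 RPKM, all below every library of the other groups. The log2 fold change from control to on drug was 0.08 ± 0.08 (SE) with a 95% confidence interval from -0.08 to 0.25 (edgeR, adjusted p = 0.598). After withdrawal Lox fell by 62.4% against control, a log2 fold change of -1.41 ± 0.08 (adjusted p = 1.29e-08). Measured from the on-drug level the change was -1.49 ± 0.08 (adjusted p = 6.52e-09). In both of these comparisons Lox had rank 1 by p among all tested genes. In whole tissue, fewer cells that express a gene and less RNA per cell cannot be told apart.

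Loxl1, the elastin-associated member, was higher on drug and back within the control range after withdrawal. The gene (ENSMUSG00000032334.10) spans chr9:58287738-58313186 on the minus strand. Control libraries gave 94.8, 80.1, 74.7 and 88.1 RPKM. On drug the values were 89.1, 118, 118 and 111 RPKM, with replicate 1 inside the control range and the other 3 above it. Off drug the values were 89.1, 82.0, 82.6 and 77.6 RPKM, all within the control range. The on-drug rise over control was 0.37 ± 0.09 on the log2 scale (adjusted p = 0.0171). It missed the threshold when control replicate 2 or 3, or on-drug replicate 2, 3 or 4, was left out, with adjusted p from 0.0521 to 0.0751. The off-drug log2 fold change against control was -0.03 ± 0.09 with an interval from -0.21 to 0.16 (adjusted p = 0.89), which leaves out a fall of the size seen for Lox. Against the on-drug level it was -0.40 ± 0.09 (adjusted p = 0.0056).

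Loxl2, which cross-links collagen IV of basement membranes, had the largest estimated rise on drug of the 5 genes and then fell below control. The gene (ENSMUSG00000034205.16) spans chr14:69609068-69695834 on the plus strand. Control values were 13.8, 12.3, 14.6 and 13.5 RPKM. On drug they were 20.5, 21.3, 22.8 and 19.2 RPKM, all above the controls. Off drug they were 9.02, 12.7, 9.83 and 8.87 RPKM, of which replicate 2 lay within the control range. Loxl2 rose by 0.63 ± 0.10 on the log2 scale on drug (adjusted p = 0.00141), or 54.5%. Off drug it fell by 0.42 ± 0.10 on the log2 scale against control (adjusted p = 0.00902) and by 1.05 ± 0.10 against on drug (adjusted p = 3.2e-06).

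Loxl3, a member known for its part in palate and spine development, changed in the same directions as Loxl2 with smaller estimates. The gene (ENSMUSG00000000693.10) spans chr6:83034173-83052562 on the plus strand. Control values were 27.3, 25.3, 26.7 and 28.6 RPKM. They were 30.5, 34.7, 32.8 and 35.8 RPKM on drug and 22.7, 23.1, 22.4 and 21.2 RPKM off drug, so that no group overlapped another. Relative to control, the log2 fold change was 0.31 ± 0.06 on drug (adjusted p = 0.00516) and -0.27 ± 0.06 off drug (adjusted p = 0.0066). From on drug to off drug it was -0.58 ± 0.06 (adjusted p = 4.52e-06).

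Loxl4 was the scarcest member, with 469 to 970 reads per library. The gene (ENSMUSG00000025185.14) spans chr19:42593982-42612813 on the minus strand. Control values were 1.98, 2.16, 1.94 and 1.82 RPKM. On drug they were 2.11, 2.61, 2.89 and 2.82 RPKM, with replicate 1 inside the control range. Off drug they were 2.15, 1.81, 1.68 and 1.51 RPKM, and replicate 1 again lay among the controls. The on-drug difference from control, 0.40 ± 0.12 on the log2 scale, had an adjusted p of 0.0478 and missed the threshold in 15 of 21 other settings, with adjusted p up to 0.157. Relative to control, the off-drug log2 fold change was -0.15 ± 0.12 with an interval from -0.40 to 0.10 (adjusted p = 0.465). From on drug to off drug Loxl4 fell by 0.55 ± 0.12 on the log2 scale (adjusted p = 0.00399).

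Set out by comparison, 4 of the 5 genes were higher on drug than in control aorta and 0 were lower, the exception being Lox. Of all tested genes 7.07% were called in this comparison, 4.13% higher and 2.94% lower. The groups did not overlap for 2 members, Loxl2 and Loxl3, against 12.3% of all genes. After withdrawal 3 of the 5, Lox, Loxl2 and Loxl3, were lower than control and 0 were higher. Here 12% of all genes were called, 6.27% higher and 5.77% lower. Lox and Loxl3 did not overlap with the controls, against 16.9% of all genes. From on drug to off drug all 5 members fell, where 12.4% of all genes were called, 5.44% higher and 6.92% lower. Groups did not overlap in that comparison for Lox, Loxl1, Loxl2 and Loxl3, against 18.8% of all genes. Because the comparisons share groups, they are not separate evidence of a common course.

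**Figure D2:**
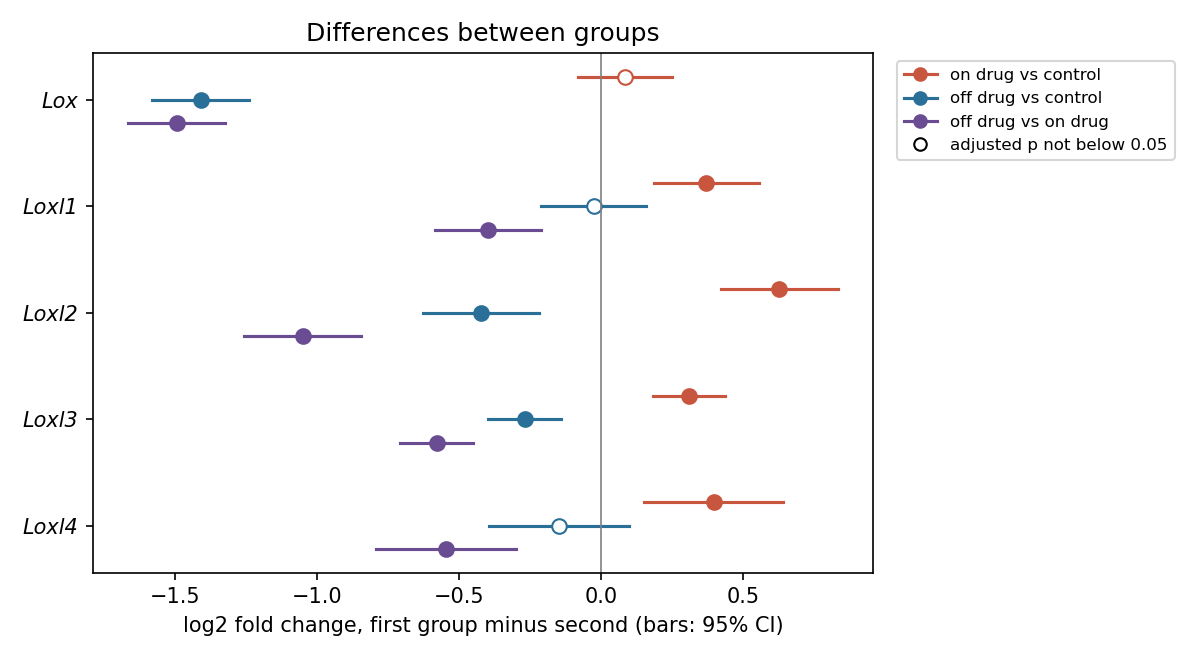
Log2 fold change of each lysyl oxidase gene (points) with its 95% confidence interval (bars) in the 3 comparisons, first group minus second; open points had an adjusted p of 0.05 or more. Relative to control, Lox lies near 0 on drug (0.08) and at -1.41 off drug. Loxl1 lies at 0.37 on drug and near 0 off drug (-0.03).

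The balance between the members shifted with these changes. Summed over the 5 genes, the family stood at 193, 179, 172 and 189 RPKM in control libraries. On drug the sums were 199, 247, 234 and 224 RPKM, and off drug they were 142, 143, 136 and 132 RPKM. Lox supplied 30.8 ± 1.93% of the family's RPKM in controls, 26.5 ± 2.24% on drug and 15.4 ± 1.65% off drug (SD, n = 4). Loxl1 supplied 45.9 ± 2.48%, 48.2 ± 2.50% and 59.9 ± 2.30% in the same order. Shares of a fixed total move against each other by construction. Loxl3 supplied 14.7 ± 0.724%, 14.9 ± 0.983% and 16.2 ± 0.202%.

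**Figure D3:**
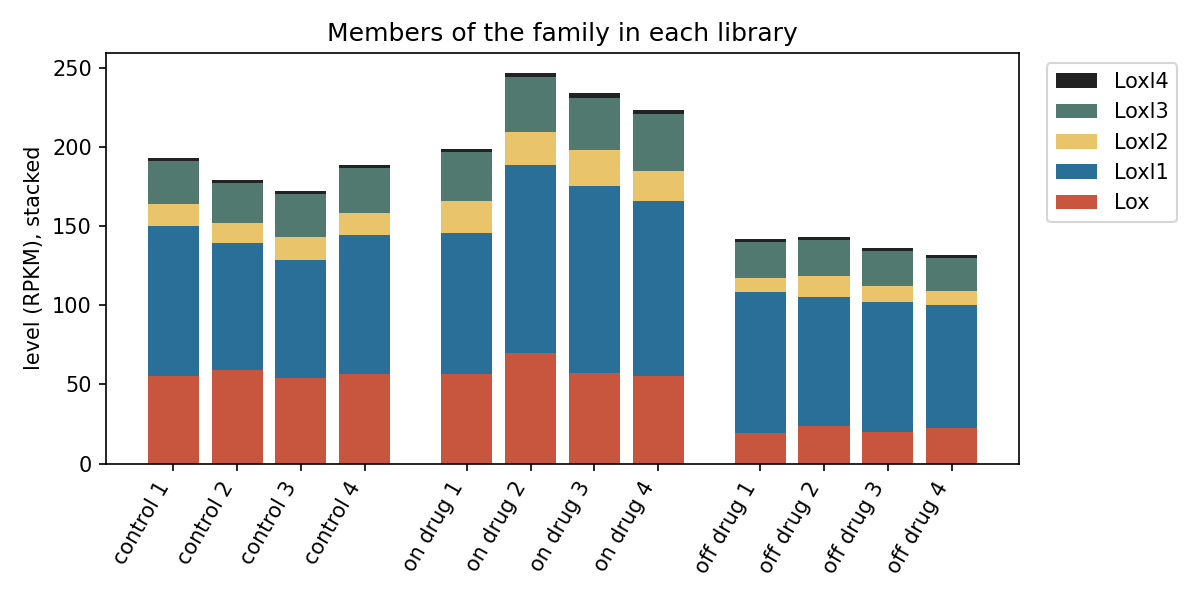
RPKM of the 5 lysyl oxidase genes stacked for each of the 12 libraries (y axis from 0). The Lox segment at the bottom shrinks off drug, where it is 15.4% of the family on average against 30.8% in controls, while the Loxl1 segment keeps its control height.

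Ratios within a library do not depend on how libraries were scaled, so each member was also set against the others and against its substrates. There were 15 ratios and 3 comparisons, 45 tests by exact two-sided permutation of 4 against 4 libraries. The smallest p this design allows is 0.0286. It was reached by 16 tests, for which the adjusted p was 0.0804, so 0 of 45 passed an adjusted p of 0.05. The ratio of Lox to Loxl1 was 0.584 to 0.742 in controls, 0.484 to 0.635 on drug and 0.215 to 0.288 off drug. Off drug it stood below the other groups without overlap, with a difference of -1.39 on the log2 scale from control and -1.10 from on drug (exact permutation p = 0.0286 for each). The log2 ratio of Lox to Loxl2 was lower by 0.55 on drug and by 0.98 off drug than in control, again without overlap (exact permutation p = 0.0286 for each). The ratio of Loxl3 to Loxl4 overlapped in all comparisons, with log2 differences between -0.11 and -0.03 (exact permutation p from 0.4 to 0.771).

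Elastin (Eln) is the substrate of Lox and Loxl1 in the lamellae. The ratio of Loxl1 to Eln was highest in the off-drug libraries, while that of Lox to Eln overlapped between groups. In RPKM, Lox stood at 0.721, 0.952, 1.19 and 1.08 times Eln in controls, at 0.762, 0.521, 0.480 and 0.638 times on drug and at 0.644, 0.713, 0.726 and 0.865 times off drug. The groups overlapped in each comparison, with exact permutation p from 0.0571 to 0.171. Loxl1 stood at 1.23, 1.28, 1.64 and 1.68 times Eln in controls and at 1.20, 0.879, 0.993 and 1.28 times on drug. Off drug its ratios were 2.99, 2.48, 3.04 and 3.00, above every other library. On the log2 scale this was 0.99 above control and 1.41 above on drug (exact permutation p = 0.0286 for each). Off drug against control, Loxl1 itself changed by -0.03 ± 0.09 and Eln by -1.03 ± 0.21 on the log2 scale. From on drug to off drug Loxl1 changed by -0.40 ± 0.09 and Eln by -1.84 ± 0.22. Against collagen I (Col1a1), the ratio of Lox averaged 0.405 ± 0.0605 in controls, 0.237 ± 0.0396 on drug and 0.168 ± 0.0199 off drug (SD, n = 4). No group overlapped another (exact permutation p = 0.0286 in each comparison). The on-drug and off-drug groups only just parted, with a lowest on-drug ratio of 0.19397 and a highest off-drug ratio of 0.19339. Loxl2 against Col1a1 and against the basement membrane chain Col4a1 overlapped in all comparisons, with exact permutation p from 0.0571 to 0.6.

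**Figure D4:**
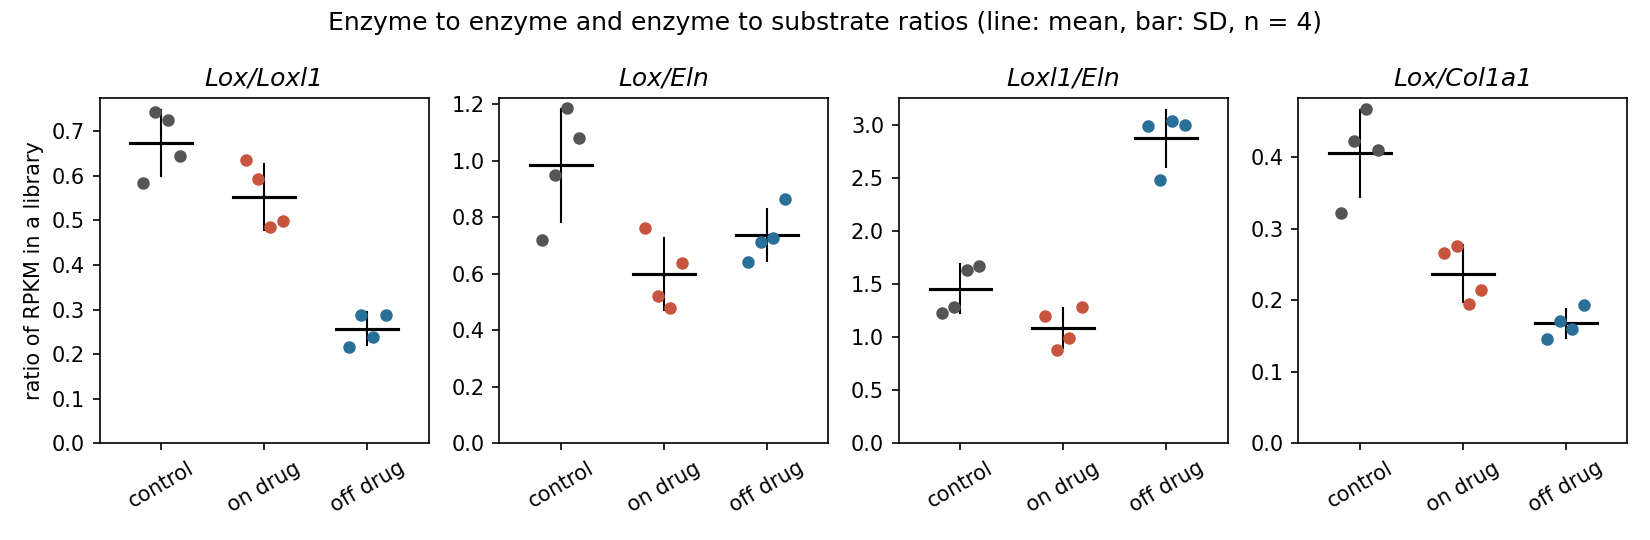
Ratio of RPKM values within each library for Lox to Loxl1, Lox to Eln, Loxl1 to Eln and Lox to Col1a1 (y axes from 0); points are libraries, lines the mean and bars the SD of 4. The off-drug libraries lie highest for Loxl1 to Eln (2.48 to 3.04) and lowest for Lox to Loxl1 (0.215 to 0.288), while the groups overlap for Lox to Eln.

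The counts of called genes in the partner lists below stand beside the shares over all tested genes. Against control, 4.13% of all genes were higher and 2.94% lower on drug, and 6.27% and 5.77% off drug. From on drug to off drug 5.44% were higher and 6.92% lower. Of 17 elastic fibre genes, the substrate and assembly partners of Lox and Loxl1, 8 were higher on drug and 0 lower (median log2 fold change 0.29, against 0.0049 over all genes). After withdrawal 2 were higher and 3 lower than control (median 0.05 against -0.0077), and from on drug to off drug 0 rose and 8 fell (median -0.11 against -0.0011). The count of 2 became 1 when off-drug replicate 1, 2, 3 or 4, on-drug replicate 2 or control replicate 2, 3 or 4 was left out. The last count was 5 when on-drug replicate 2 or off-drug replicate 3 was left out. Eln itself gave 621, 505, 369.8 and 425 CPM (counts scaled to library size) in controls. On drug it gave 601, 1091, 965 and 699.6 CPM, with replicate 1 inside the control range, and off drug 241, 268, 219.8 and 209 CPM, below all controls. The change was 0.80 ± 0.21 on the log2 scale on drug (adjusted p = 0.0523) and -1.03 ± 0.21 after withdrawal, again from control (adjusted p = 0.0122). Fbn1, the fibrillin that forms the microfibril scaffold, rose by 0.40 ± 0.07 on drug and fell by 0.60 ± 0.07 below control after withdrawal (adjusted p = 0.00158 and 8.27e-06). Mfap5, a microfibril protein, had the same order (0.29 ± 0.08 and -0.43 ± 0.08, adjusted p = 0.0372 and 0.00207). Fbln2 rose by 0.68 ± 0.08 on drug (adjusted p = 5.38e-05) and stood at -0.01 ± 0.08 off drug against control.

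The fibulins known to bring the enzymes to tropoelastin did not pass the test in any comparison. Fbln5, which binds Loxl1, stood at 634 ± 42.9 CPM in controls, 656 ± 42.9 on drug and 620.5 ± 28.7 off drug. Efemp2, or fibulin-4, which binds Lox and is needed for its activation, stood at 63.4 ± 5.39, 68.4 ± 3.24 and 71.2 ± 4.45 CPM. Their log2 fold changes lay between -0.08 and 0.17, with adjusted p from 0.114 to 0.815.

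Among 11 fibrillar collagen chains 4 were higher and 1 lower on drug (median 0.24). Col1a1 gave 1127, 923, 763 and 907 CPM in controls, 1397, 1672, 1937 and 1695 on drug and 861, 907, 809.7 and 759 off drug. It rose by 0.85 ± 0.11 on the log2 scale (adjusted p = 0.000668) and stood at -0.16 ± 0.11 off drug against control (adjusted p = 0.414). Col5a2 rose by 0.37 ± 0.07 (adjusted p = 0.00501). After withdrawal 1 chain was higher than control and 2 were lower (median -0.21). The lower chains were Col3a1, which fell by 0.64 ± 0.10, and the scarce Col5a3, which fell by 1.44 ± 0.18 (adjusted p = 0.000814 and 0.000103). Named after their values were seen, the chain lower on drug was Col2a1, at under 1 CPM and not called without control replicate 3 or on-drug replicate 2, 3 or 4, and the chain higher off drug was Col27a1. Between on drug and off drug 1 chain was higher and 6 were lower (median -0.45).

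Of the 6 collagen IV chains, the basement membrane substrate of Loxl2, 4 were higher on drug and 0 lower (median 0.29). These were Col4a1, Col4a2, Col4a3 and Col4a4, with log2 fold changes of 0.30 ± 0.08, 0.50 ± 0.08, 0.38 ± 0.07 and 0.29 ± 0.06 and adjusted p from 0.00134 to 0.0228. After withdrawal 0 were higher than control and 1 was lower (median -0.03), Col4a1 at -0.35 ± 0.08 (adjusted p = 0.00531), a count that became 2 without control replicate 4. From on drug to off drug 0 rose and 5 fell (median -0.38), with Col4a5 as the fifth at -0.22 ± 0.06 (adjusted p = 0.0235). Col4a1 and Col4a2 overlap at their starts and could share some reads.

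Propeptide proteinases and the matrix proteins that assist them had 9 of 13 members higher on drug and 0 lower (median 0.33). Leaving out control replicate 2 gave a count of 5, and leaving out on-drug replicate 3 gave 4. Bmp1, the proteinase that releases active Lox, gave 105, 93.6, 99.4 and 99.3 CPM in controls and 118, 127, 127 and 129 on drug, without overlap. Off drug it gave 95.4, 106, 95.6 and 92.0 CPM. Its log2 fold change was 0.33 ± 0.06 on drug (adjusted p = 0.0029) and -0.03 ± 0.06 off drug against control (adjusted p = 0.816). Fibronectin (Fn1), on which Bmp1 and Lox assemble, rose from 1936 ± 98.6 to 3514 ± 258 CPM on drug and stood at 2484 ± 188 off drug, above control in both (0.86 ± 0.07 and 0.36 ± 0.07, adjusted p = 2.93e-06 and 0.00211). Thbs1, thrombospondin-1, rose by 1.01 ± 0.16 on drug (adjusted p = 0.0054) and stood at -0.37 ± 0.16 off drug (adjusted p = 0.176). Adamts2, the procollagen amino-propeptidase, rose by 0.33 ± 0.08 on drug and fell by 0.27 ± 0.08 off drug against control (adjusted p = 0.0142 and 0.026). In off-drug aorta 2 of the 13 were higher and 1 lower than control (median -0.03), and 0 were higher and 9 lower than on drug (median -0.39). Against control, the higher count became 1 without control replicate 3 or off-drug replicate 1 or 3, and the lower count became 0 without control replicate 1 or 3 or off-drug replicate 3 or 4 and 2 without control replicate 2.

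Lysine hydroxylation sets the kind of collagen cross-link that follows oxidation. Of 7 tested genes, 2 were higher on drug and 0 lower (median 0.16), a count that went to 0 when replicate 3 of the control or on-drug group was left out and to 1 without replicate 2 or 4 of either. The members that rose were the hydroxylase Plod3 (0.29 ± 0.07, adjusted p = 0.0215) and the chaperone Fkbp10 (0.34 ± 0.08, adjusted p = 0.0136). Plod2, the telopeptide lysyl hydroxylase, stood at 115 ± 9.26 CPM in controls, 128 ± 5.02 on drug and 105 ± 10.9 off drug, and passed only from on drug to off drug (-0.28 ± 0.07, adjusted p = 0.0146). In off-drug aorta 1 gene, Fkbp10, was higher and 1 lower than control (median -0.02). The higher call was lost when control replicate 2, 3 or 4, on-drug replicate 2 or 4, or off-drug replicate 1, 2 or 3 was left out. The lower gene was the collagen chaperone Serpinh1, which went from 1130.5 ± 86.4 to 695 ± 45.6 CPM (-0.70 ± 0.08, adjusted p = 1.09e-05). Against the on-drug group 0 were higher and 3 lower (median -0.15), the latter 1 without off-drug replicate 3.

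Of 16 tested genes of copper supply, 0 were higher and 1 lower on drug (median -0.06), and in off-drug aorta 4 were higher and 2 lower than control (median 0.0069). The on-drug counts became 2 higher and 2 lower without control replicate 1. The higher count became 1 without on-drug replicate 1, and the lower count became 0 without control replicate 2 or on-drug replicate 4. Off drug, the count of 4 went to 1 when replicate 3 of the control or off-drug group was left out, and to 2 without off-drug replicate 1 or control replicate 2 or 4. The lower count of 2 off drug went to 1 without control replicate 2, 3 or 4 or on-drug replicate 2 or 4. It also went to 1 without off-drug replicate 1, 2, 3 or 4. Atp7a, the pump that loads copper onto secreted enzymes, stood at 28.1 ± 2.19 CPM in controls, 26.1 ± 2.11 on drug and 24.5 ± 1.92 off drug and passed in no comparison (adjusted p from 0.121 to 0.51). The metalloreductase Steap3 was higher off drug than control (0.88 ± 0.11, adjusted p = 3.18e-05), as was Steap4 (0.29 ± 0.07, adjusted p = 0.015). The plasma copper protein Cp was lower on drug and off drug than control (-0.31 ± 0.08 and -0.35 ± 0.08, adjusted p = 0.0262 and 0.00688). Between off drug and on drug 2 were higher and 1 lower (median 0.07), the lower one being the metallothionein Mt2 (-1.29 ± 0.30, adjusted p = 0.0211), and that count went to 0 without on-drug replicate 1 or off-drug replicate 1, 2 or 4. The copper amine oxidases outside the family, Aoc2 and Aoc3, were both lower off drug than on drug (-0.44 ± 0.14 and -0.41 ± 0.06, adjusted p = 0.0455 and 0.000204). Only 1 of these passed when control replicate 1 or 3, on-drug replicate 1 or 4, or off-drug replicate 1, 2 or 3 was left out. Aoc3 was also higher on drug than control (0.26 ± 0.06, adjusted p = 0.0174), a call lost when control replicate 2 or 3, or on-drug replicate 3 or 4, was left out.

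Of 11 tested genes reported to induce lysyl oxidase transcription, 3 were higher on drug and 0 lower (median 0.18). The count fell to 0 when control replicate 3 or on-drug replicate 4 was dropped, and to 1 when control replicate 2 or 4, or on-drug replicate 2 or 3, was dropped. They included Tgfb2, a growth factor (0.35 ± 0.09, adjusted p = 0.0226), and Epas1, a hypoxia factor (0.32 ± 0.08, adjusted p = 0.0186). Named after its values were seen, the third was Tgfb1. In off-drug aorta 1 was higher and 2 were lower than control (median -0.02). Connective tissue growth factor, Ctgf, went from 2030.2 ± 258 CPM in controls to 2116 ± 149 on drug and 1337 ± 232 off drug. Its log2 fold change was 0.06 ± 0.12 on drug, which was not called, and -0.60 ± 0.12 off drug against control (adjusted p = 0.00466). Tgfb3 was likewise near control on drug (0.01 ± 0.06, adjusted p = 0.942) and lower off drug (-0.25 ± 0.06, adjusted p = 0.0138). Epas1 did not go this way, at 79.9 ± 4.16 CPM in controls, 99.4 ± 9.31 on drug and 101 ± 10.3 off drug. Its off-drug libraries ran from 87.5 to 110.8 CPM, above the control range of 75.4 to 83.9 CPM. Against the on-drug group 0 were higher and 3 lower (median -0.17).

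**Figure D5:**
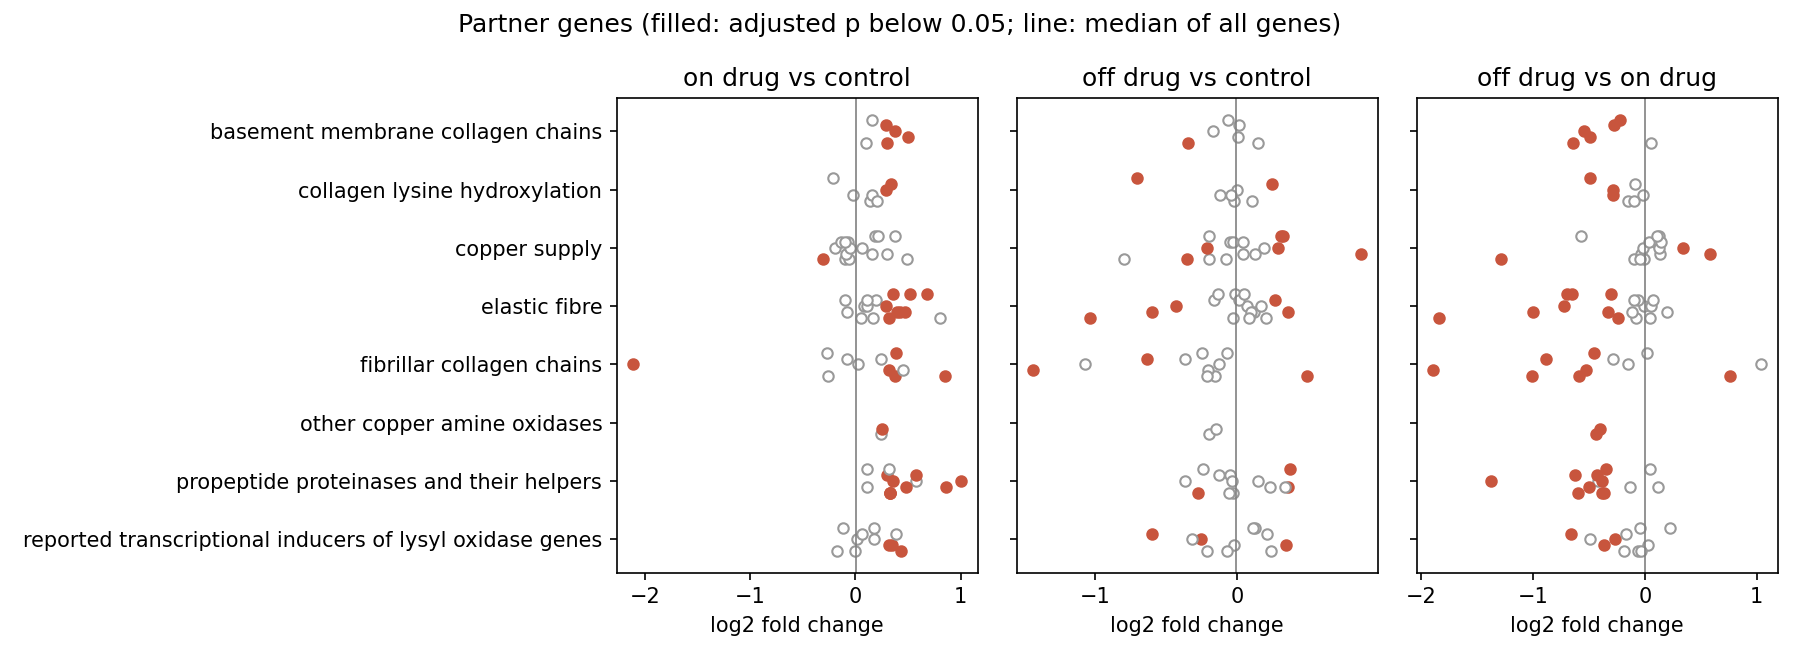
Log2 fold change of each tested gene in 8 groups of partners of the lysyl oxidases (1 point per gene, filled where the adjusted p is below 0.05; the vertical line is the median of all genes) in the 3 comparisons. Proteinases and helpers have 9 of 13 filled points above 0 on drug, and copper supply has 0 of 16.

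Markers of the cell types of the wall were read beside these results. Over all tested genes, 4.13% were called higher and 2.94% lower on drug than control, and 6.27% and 5.77% off drug than control. Off drug against on drug the shares were 5.44% and 6.92%. In lists this short, a count of 1 can lie near those shares. Smooth muscle genes dominated, with summed levels of 15738 to 18219 CPM in controls, 17917 to 20618 on drug and 17228 to 19715 off drug, and 1 of 7 was higher on drug and 2 of 7 were higher off drug than control. Adventitial fibroblast genes summed to 3113 to 3769 CPM in controls, 3253 to 3511 on drug and 2988 to 3289.7 off drug, with 2 of 8 higher on drug and 3 of 8 lower off drug than control. The count of 2 went to 0 when control replicate 2, on-drug replicate 2 or 3, or off-drug replicate 3 was left out. It went to 1 without control replicate 1, 3 or 4, on-drug replicate 1 or 4, or off-drug replicate 1. Mfap5 is in this list as well as among the elastic fibre genes. Lymphatic endothelial genes moved with the drug, with 4 of 5 higher on drug and sums of 65.5 to 87.1 CPM in controls, 108 to 128 on drug and 50.1 to 64.6 off drug. Off drug 1 of the 5, Lyve1, named after its values were seen, was lower than control, a call lost when control replicate 3 or 4, or off-drug replicate 1, 3 or 4, was left out. Endothelial genes summed to 693 to 786 CPM in controls, 869.6 to 1004 on drug and 626 to 814 off drug, with 2 of 7 higher on drug (1 without control replicate 3 or on-drug replicate 3) and 2 of 7 lower off drug than control. Macrophage genes (367 to 452, 409 to 451 and 330.1 to 362 CPM) had 1 of 6 higher on drug and 3 of 6 lower off drug than control, the former lost when any library but replicate 4 of the on-drug or off-drug group was left out. Erythroid genes had 4 of 4 lower off drug than control, with sums of 3787 to 15931 CPM in controls, 2977 to 4603 on drug and 1553 to 3659 off drug. That count went to 0 when control replicate 3 or 4, or off-drug replicate 2, 3 or 4, was left out. It went to 2 without control replicate 2 and to 1 without on-drug replicate 3. From on drug to off drug, where all 5 lysyl oxidase genes fell, 5 of 8 adventitial fibroblast, 4 of 7 endothelial, 3 of 5 lymphatic endothelial and 4 of 6 macrophage markers were lower and 0 in these lists were higher. Of the smooth muscle markers 1 was higher and 1 lower in that comparison, and of the erythroid markers 0 passed. The lower smooth muscle call was lost without control replicate 3, or without replicate 2, 3 or 4 of the on-drug or off-drug group. The part of these cell types in the changes of the lysyl oxidase genes was not tested. Adipocyte genes (7, with 175 to 650.3 CPM in controls, 268 to 526 on drug and 86.0 to 486 off drug), mesothelial genes (4) and nerve genes (5) had 0 called on drug or off drug against control, and skeletal muscle genes, of which 2 of 6 were higher on drug and 1 of 6 off drug, stood at 17.1 CPM or less in sum. In no list was a marker at 0 in every library.

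Counting took no account of strand, so reads from genes that share exon bases with a member cannot be told apart from its own. Loxl2 shares 301 of its 5405 counted bases with Gm27177 on the opposite strand, and Loxl3 shares 535 of its 4603 with Htra2. Gm27177 passed in no comparison, with log2 fold changes of 0.22 from control to on drug, 0.03 from control to off drug and -0.20 from on drug to off drug (adjusted p from 0.148 to 0.899). If the reads of the partner were spread evenly along it, the shared bases would hold 3.19% of the reads counted for Loxl2 and 5.27% of those for Loxl3. Htra2 changed by 0.22 ± 0.07 on drug against control (adjusted p = 0.0688) and by -0.33 ± 0.07 off drug against on drug (adjusted p = 0.00476). Loxl2 also shares 7 bases with Mir6950, which lies on its own strand. An even spread of Mir6950 reads would put 0.309% of the Loxl2 reads in those bases. Against control, Mir6950 changed by 0.39 ± 0.16 on drug and by -0.59 ± 0.17 off drug (edgeR, adjusted p = 0.167 and 0.0268). Off drug against on drug it changed by -0.975 ± 0.17 (edgeR, adjusted p = 0.000605). Lox, Loxl1 and Loxl4 share no exon bases with another counted gene.

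The genes whose log2 CPM followed each member most closely over the 12 libraries were sought among the 12058 genes whose mean log2 CPM was 1 or more. The values are given as descriptions, since the libraries fall in 3 groups and r holds the differences between groups. For Lox they were Crybg3 (r = 0.985), Dync1li1 (0.981) and Wdr95 (0.98). Crybg3 shared the absence of a called change on drug (-0.03 ± 0.08) and the fall off drug against control (-1.16 ± 0.08). For Loxl1 they were Pofut2 (0.967), Coro1c (0.961) and Plekhg3 (0.96). For Loxl2 they were Ceacam1 (0.979), the integrin chain Itgam (0.969) and the collagen chain Col5a2 (0.968). For Loxl3 they were Capn2 (0.986), Zcchc24 (0.984) and Sept8 (0.983), and for Loxl4 Copg1 (0.942), Itgb1 (0.936) and Creld1 (0.935).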

How the data were processed

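Each deposited sample file gives raw counts of reads by gene. Per the file headers, the counter was featureCounts 1.4.6-p3, the annotation GENCODE M13 and the aligner index STAR 2.5.3a. Its options kept multi-mapped and multi-gene reads, counting them at every place, left duplicates out and used no strand. The submitters' processing notes name GRCm38 as the genome. The deposited series table of log2 values equalled log2(count / size factor + 1) with DESeq2 size factors (largest gap 5e-09) and supplied gene symbols only. A second, smaller table of log2 values was not used here.

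Counts were fitted in R 4.3.3 with edgeR 4.0.16: filterByExpr (minimum count 10, total 15), TMM factors and a robust quasi-likelihood model of 3 groups over 12 libraries. Benjamini-Hochberg adjustment ran over all 24660 genes, with calls at an adjusted p below 0.05. Standard errors came from the F statistic. CPM and RPKM used TMM-scaled library sizes, and RPKM the deposited counted lengths. Ratios used counts plus 0.5 and were adjusted over 45 tests. The fit was tested on simulated counts. Sequences came from GENCODE M21 transcripts, aligned with Biopython 1.88.

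Members and the 8 partner and 10 marker lists were chosen with earlier results of these data known. Named were all members, the ratio partners Eln, Col1a1 and Col4a1, Bmp1, Efemp2, Fbln5, Fn1, Atp7a and Plod2, every called gene of lists of up to 6 tested genes, up to 4 called genes (smallest adjusted p) of longer lists, 3 genes by likeness per member, leaving out unnamed gene models, and genes overlapping a member. Replicate numbers came from the labels. Other settings were DESeq2 size factors, library size alone, no filter, a stricter filter (4 or more libraries at 1 CPM or more), the DESeq2 1.42.0 test, limma-voom (limma 3.58.1), 2 groups alone, a fit that was not robust, a replicate block and each library left out. Counts per list under these settings were added after seeing the data.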

Additional observations from a re-analysis of the deposited data

Results flagged for a closer look

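Among 117 sets of 4 libraries (members and named partner genes, each in 3 groups) 2 had a library far from the other 3 by Dixon's test, where chance gives about 1 in 20. Lox stood at 337.4 CPM in on-drug replicate 2 and at 265.2 to 275.3 CPM in the other on-drug libraries. Tgfb3 stood at 146.9 CPM in off-drug replicate 1 and at 130.5 to 133.1 CPM in the other off-drug libraries. Without on-drug replicate 2 the log2 fold change of Lox on drug against control was -0.009, with an adjusted p of 0.97 (edgeR), in place of 0.08.

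For all 5 lysyl oxidase genes the difference from control was tested to differ between the on-drug and the off-drug group. This test is the same as off drug against on drug, since both use the same controls. The difference was -1.4948 for Lox, -0.3978 for Loxl1, -1.0518 for Loxl2, -0.5801 for Loxl3 and -0.5455 for Loxl4 on the log2 scale, with adjusted p from 6.52e-09 to 0.0056 in edgeR's quasi-likelihood test.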

How the results depend on the processing

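Of 15 differences between groups in the lysyl oxidase genes, 13 stayed on their side of the threshold in all 21 other settings, and 0 called differences changed direction. Uncalled log2 fold changes changed sign for Lox on drug against control in 1 setting and for Loxl1 off drug against control in 3. The exceptions were Loxl1 and Loxl4 on drug against control, called in 16 and 6 of the 21. Loxl1 ran from 0.311 to 0.45 on the log2 scale with each library left out. Loxl4 was 0.388 with DESeq2 size factors (adjusted p = 0.0518), 0.431 with library size alone (0.0505), 0.403 with limma-voom (0.0566), 0.389 with 2 groups alone (0.0547) and 0.396 in the fit that was not robust (0.0589). It was 0.4 with the replicate block (0.0696) and ran from 0.338 to 0.481 with each library left out. Over all tested genes, replicate numbers showed no pairing, since 0 of 12 same-numbered pairs correlated above 0.1 and 2 of 12 libraries correlated best with their own number. A pairing that touches only some genes could not be seen in this way. The replicate block changed no other call of a member and gave 1558, 2791 and 3047 called genes, against 1743, 2967 and 3047 without it. On drug against control the called genes numbered 2812 with DESeq2 and 1147 with 2 groups alone, and 803 to 2290 with each library left out, the lowest counts being 803 and 918 when on-drug replicate 3 or 4, and 906 when control replicate 3, was left out. The cause was not tested. The 16 ratio tests at the smallest p were 16 with a pseudocount of 1 or 0. With each library left out, all 360 ratio differences moved by less than 1 SD. Groups of 4 libraries allow no larger move, so this gave no measure of the stability of the ratios. Of the counts per list, 18 of 48 for partner lists and 11 of 60 for marker lists moved by over 1.5 times when some library was left out. Loxl4 had the fewest reads of the members, 469 in its smallest library. The part of depth in its unstable call was not tested.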
